A study of Mus musculus with 48 samples.

Results

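The cytosolic ribosomal protein genes were taken as every row of the count table whose gene symbol is Rpl or Rps followed by a number (with an optional a, x or l), by p0 to p2, or by a. Pseudogene rows ending in -ps and the Rps6k kinases were thereby left out. The rule gave 83 of 56893 rows, 51 named for the large subunit and 32 for the small subunit. Of these, 79 passed the filter on low counts and were among the 17352 genes tested. The 4 that did not pass were Rpl3l, Rpl39l, Rpl10l and Rpl32l.

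Poly(A) RNA of 1 brain hemisphere was sequenced from 48 mice of 5.5 to 8.5 months in 12 groups of 4, given by sex, genotype and feeding state. Controls were Grin1fl/fl, except for 1 Grin1fl/+ animal among the unrestricted females, and the 24 knockouts were Aldh1a1+/P2A-CreERT2::Grin1fl/fl, in which the Cre allele at Aldh1a1 is meant to delete Grin1, which encodes a subunit of the NMDA glutamate receptor, in cells that express Aldh1a1. All mice were singly housed. Unrestricted mice had food throughout, restricted mice were taken after 2 consecutive nights of food restriction, and refed mice after the same restriction and 3 days of free feeding. A hemisphere holds many cell types, and a lower level can mean fewer cells of a type or less RNA per cell, which cannot be told apart here.

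Each cytosolic ribosome contains 1 copy of most of these proteins, so their genes are expressed strongly and in near-constant proportion in dividing and resting cells alike. Their mRNAs are short and typically begin with a C followed by an unbroken run of pyrimidines, the 5′ terminal oligopyrimidine (TOP) tract. When nutrients are short, the kinase complex mTORC1 is less active and the protein LARP1 holds TOP mRNAs back from translation, while their abundance can stay the same. RNA-seq measures that abundance, not translation.

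The tract itself is shown first, because it is the feature by which these mRNAs are recognised as a group. RefSeq promoter entries (assembly GRCm38.p6) matched 61 of the 83 symbols. A C at the annotated start followed by at least 4 more pyrimidines (C or T) was found for 14 of these 61 genes. Only the strand with the sequence of the mRNA was read. Such a tract was found for 2.93% of the 12242 other tested genes with an entry and for 2.51% of all 32851 entries. The windows below hold 15 bases before and 15 from the annotated start. They are read 5′ to 3′ on the strand with the sequence of the mRNA, with the pyrimidine run from the start in capitals. The first 6 carry the tract and the last 2 do not at the start that RefSeq gives, which may lie a few bases from the true one.
Rps6 (chr4:86857353-86857382, minus strand): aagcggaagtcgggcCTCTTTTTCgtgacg
Rps10 (chr17:27635230-27635259, minus strand): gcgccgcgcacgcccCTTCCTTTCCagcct
Rps18 (chr17:33955651-33955680, minus strand): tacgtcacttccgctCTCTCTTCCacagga
Rpl15 (chr14:18270972-18271001, minus strand): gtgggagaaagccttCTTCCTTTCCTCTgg
Rpl35 (chr2:39005117-39005146, minus strand): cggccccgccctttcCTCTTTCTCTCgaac
Rpl38 (chr11:114668565-114668594, plus strand): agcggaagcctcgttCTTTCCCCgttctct
Rplp0 (chr5:115559452-115559481, plus strand): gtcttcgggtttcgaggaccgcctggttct
Rpl13a (chr7:45128731-45128760, minus strand): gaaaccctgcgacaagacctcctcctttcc
The Rpl13a window ends in a run of pyrimidines that starts downstream of the annotated base, so the count of 14 is a count of annotated starts, not of TOP mRNAs.

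The count totals of the libraries lay between 7574827 and 16185373. Grin1 was at 250 to 470 CPM (counts scaled to a common library total) in controls and at 307 to 410 CPM in knockouts, so whole-hemisphere RNA did not show its deletion (log2 difference 0.02, standard error 0.04, edgeR, adjusted p = 1). Aldh1a1, the gene that carries the Cre allele, was at 139 to 242 CPM in controls and at 79 to 147 CPM in knockouts (log2 difference -0.92, standard error 0.05, edgeR, adjusted p = 1.42e-16). Single libraries that stood apart include the following. Male control refed replicate 1 held 4294 CPM of 6 skeletal muscle markers, against a median of 11.5 CPM over all libraries. Male control refed replicate 2 had the most negative transcript length slope of the 48, a measure described below. Female control restricted replicate 1 had the highest count total. Female knockout unrestricted replicate 2 had 7.78% of its counts in the 18S rRNA row Rn18s-rs5, while the next highest library had 1.92%. The samples carry library numbers in their names. All 16 refed libraries are numbered up to 28, whereas restricted and unrestricted libraries are spread over both sides of that number, so refeeding and library number are in part confounded.

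Expression was high and even across most of the genes. In 74 of the 79 tested, the median over the 48 libraries was 100 CPM or more, and the median of these medians was 296 CPM. Rpl13a, which is also known as a subunit of a complex that silences inflammatory mRNAs, ran from 498 to 1359 CPM with a median of 940 CPM. Rpl9 ran from 342 to 1026 CPM and Rpl3, which lines the peptidyl transferase centre, from 617 to 972 CPM. Among small subunit genes Rps3 (414 to 1015 CPM) and Rps24 (293 to 832 CPM) had the highest medians. Rps6, whose protein is phosphorylated downstream of mTORC1, ran from 337 to 741 CPM with a median of 556 CPM. Rpsa, also known as the laminin receptor, ran from 414 to 665 CPM. The stalk proteins that recruit elongation factors were at medians of 309 CPM for Rplp0, 365 CPM for Rplp1 and 216 CPM for Rplp2. Rpl5 and Rpl11, which bind 5S rRNA and can bind Mdm2, were at medians of 486 and 296 CPM. Rps19, the gene most often mutated in Diamond-Blackfan anaemia, was at a median of 280 CPM, Rps14, the small subunit gene linked to the 5q- syndrome, at 346 CPM, and Rpl22 at 114 CPM. Rps27a, which encodes a ubiquitin fusion, was at a median of 403 CPM.

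**Figure D1:**
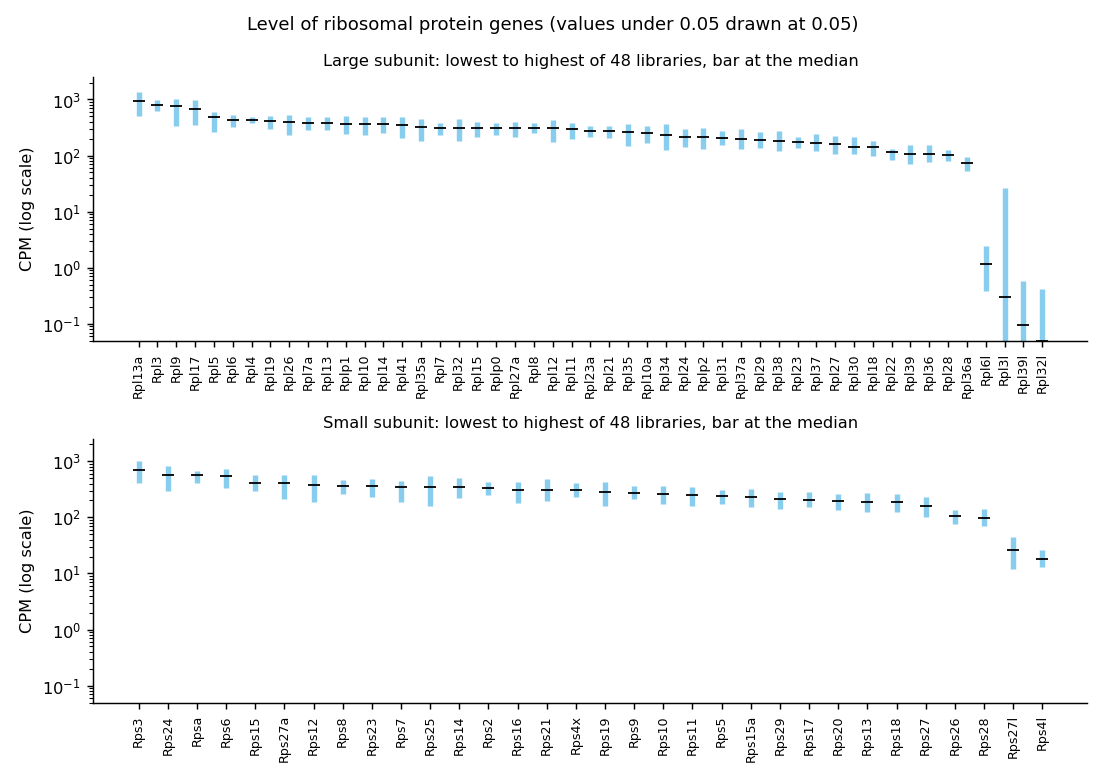
Level of the ribosomal protein genes with any count (1 is not shown), in CPM on a log axis; the blue line runs from the lowest to the highest of the 48 libraries and the black mark is the median. Most genes sit between 100 and 1000 CPM, while Rps27l, Rps4l, Rpl6l, Rpl3l, Rpl39l and Rpl32l lie far below.

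Levels between genes were compared per kilobase of the GENCODE canonical transcript. On that scale the highest mean levels were 979 CPM per kb for Rpl9, 889 CPM per kb for Rpl13a and 806 CPM per kb for Rps12. The lowest were those of Rpl10l, which had no count in any library, and of Rpl39l and Rpl32l at 0.131 and 0.221 CPM per kb. The canonical transcripts of some genes are long for this family, with 6111 bases for Rpl37, 5182 for Rps15a and 4122 for Rpl31, which lowers their values per kilobase to 28.1, 43.9 and 49.8 CPM per kb. Rpl41, the smallest ribosomal protein, was at 612 CPM per kb.

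The paralogs lay below their parent genes in every library. Rps27l, a paralog of Rps27 known as a p53 target, was at a median of 25.7 CPM (11.9 to 44.5) and Rps27 at 162 CPM (102 to 229). Rps4l was at a median of 17.9 CPM (13 to 26.3) and Rps4x at 302 CPM (228 to 418). Rpl39l, a testis paralog of Rpl39, did not pass 0.587 CPM in any library, while Rpl39 ran from 71.2 to 155 CPM. Rpl10l, the testis paralog of Rpl10, is listed at 0 in all libraries, and Rpl10 ran from 233 to 484 CPM. Rpl3l replaces Rpl3 in skeletal muscle and heart. Its median was 0.295 CPM, and it reached 25.9 CPM in male control refed replicate 1, the library with 4294 CPM of muscle markers. The next highest value, 1.72 CPM, was in female control restricted replicate 2, which had the second highest muscle marker sum at 282 CPM.

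GENCODE calls Rpl6l (chromosome 10, 110961712 to 110962582, GRCm39) a processed pseudogene and Rpl32l a transcribed one. Rpl6l had 0% whole-number values, as had 60 of the 79 genes tested, as happens when reads are divided among similar sequences. Over the 79 genes 6.94% of the nonzero values were whole numbers, against 61% over all genes tested. The 321 rows named as their pseudogenes by a -ps symbol held 0.597% as many counts as the 83 genes. Values of single genes, Rpl6l above all, are therefore uncertain where similar copies exist. The -ps rows would add little to the summed level, but any copies under other symbols were not counted.

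The summed level of the 83 genes differed 1.87-fold between libraries, from 16451 CPM in male control refed replicate 1 to 30794 CPM in female control restricted replicate 3, or from 1.64% to 3.03% of all counts. Large differences stood within groups. In restricted control males the 4 libraries were at 19198, 17368, 30698 and 26059 CPM, and in restricted control females at 18694, 24187, 30794 and 24958 CPM. The 4 restricted knockout females were close together and high, at 29032, 28445, 27560 and 27152 CPM. The 4 refed control females were also close together, at 23794, 24738, 23577 and 23540 CPM. The ranges of all 12 groups overlapped with that of at least 1 other group.

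**Figure D2:**
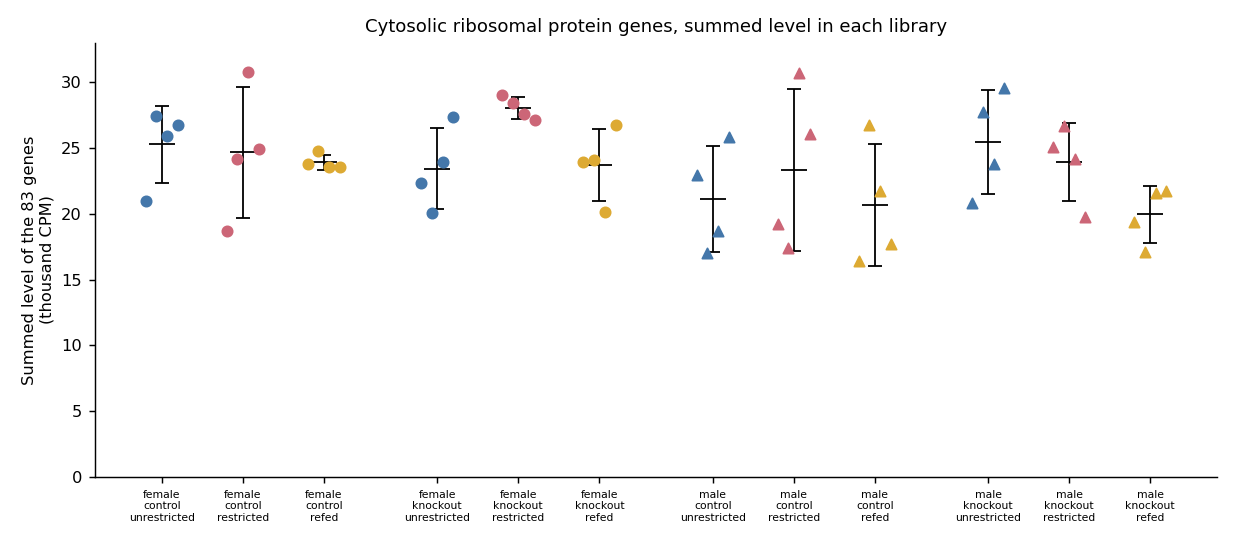
Summed level of the 83 genes in CPM (axis in units of 1000), one point per library, circles for females and triangles for males, coloured by feeding state; the long dash and bars give the mean and SD of the 4 libraries of a group. Restricted knockout females lie between 27152 and 29032 CPM, while restricted control males span 17368 to 30698 CPM.

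The genes moved up and down together. For each gene the log2 CPM of a library was set against the gene's mean over all libraries. In 16 libraries 70 or more of the 79 genes were above their mean, and in 15 libraries 9 or fewer were. The median correlation between pairs of these genes over the 48 libraries was 0.85, and 99.5% of the 3081 pairs were positive; the mean over pairs was 0.78, against 0.0012 over pairs of all genes tested. The large and small subunit sums went together with a Pearson r of 0.996 (n = 48), and their ratio stayed between 1.41 and 1.62. These correlations are descriptions of libraries that share their scaling and depth. Because the genes moved together, counts of them by sign or p-value in the comparisons below are not counts of independent genes. The 3 genes least like the rest were Rps4l (median r to the others 0.08), the pseudogene Rpl6l (0.14) and Rpl4 (0.34), which also varied little, from 377 to 478 CPM.

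The shared movement ran beside a trend on transcript length that reached far beyond these genes. The length slope of a library is the slope, over genes outside the family, of the log2 deviation from the gene's mean on log2 transcript length, so that a negative slope means that short transcripts are relatively high. The summed level had a Pearson r of -0.83 and a Spearman rho of -0.85 with this slope (n = 48 libraries). For the median deviation of the 79 genes the values were -0.85 and -0.87. Its r was -0.87 for deviations from the group means, -0.86 without the 2 libraries farthest from the median slope, -0.88 in the 28 libraries numbered up to 28 and -0.76 in the 20 numbered from 29. Gene by gene, 77 of the 79 had an r under -0.5, where 10.3% of other genes and 25.8% of the 1409 other genes of 1000 bases or less did. The 2 exceptions were Rpl6l (-0.08) and Rps4l (-0.30). The relation did not follow each member's own annotated length (r over the 79 genes -0.0023): Rps15a and Rpl37, with the longest canonical transcripts, had an r of -0.77 and -0.67.

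Removal of the length trend reduced the shared movement and did not end it. Genes outside the family were sorted into 20 bins by length, and the median deviation of a bin in a library was entered as an offset for the genes of that length. The SD of the median deviation within groups fell from 0.22 to 0.16, the median pairwise correlation from 0.85 to 0.72, and the r with the length slope from -0.85 to -0.78. The median tested gene of the family has a canonical transcript of 1096 bases, against 3179 bases over all genes tested. Members with long canonical transcripts were adjusted with long genes, although they moved as the short ones did. The SD of log2 CPM within groups rose for Rpl37 (6111 bases) from 0.20 to 0.23, while its median over the members fell from 0.25 to 0.18. The trend was thus not taken out of the family in full.

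**Figure D3:**
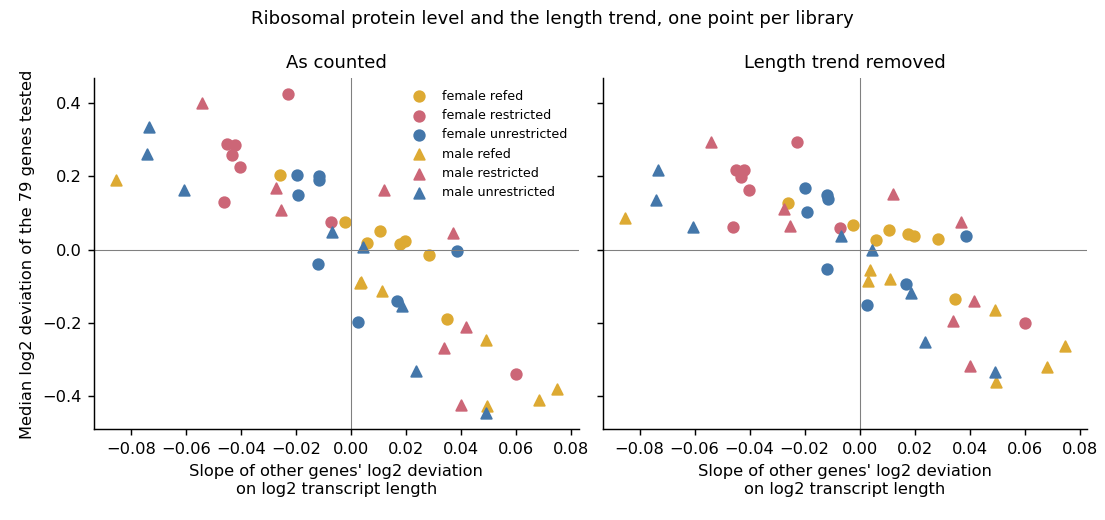
Median log2 deviation of the 79 tested genes against the length slope, one point per library, as counted (left) and with the length trend of other genes removed (right). The points fall from upper left to lower right in both panels, with an r of -0.85 and -0.78.

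**Figure D4:**
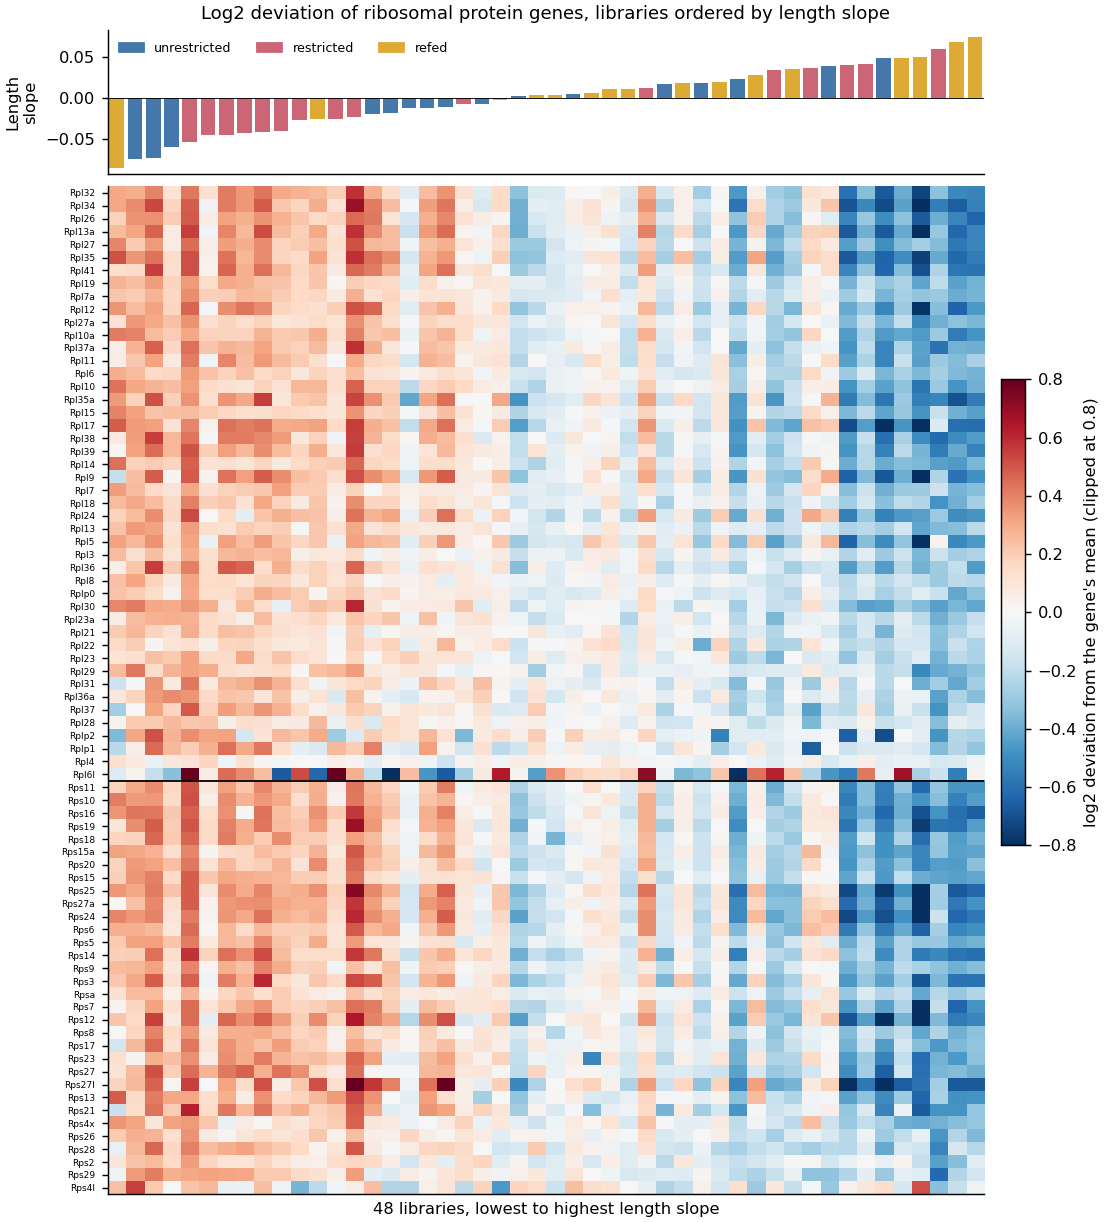
Log2 deviation of the tested genes (1 of the 79 is not shown) from their own means (red high, blue low, clipped at 0.8) in the 48 libraries, ordered from the lowest to the highest length slope; bars above give the slope, coloured by feeding state, and the line divides large from small subunit genes. Most columns are of 1 colour from top to bottom, and Rpl6l and Rps4l are the rows that stand apart.

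Other measures of the libraries also went with the median deviation of the family. Its r was 0.67 with the percentage of mitochondrially encoded counts, -0.54 with the count total and 0.53 with the library number. It was 0.73 with the sum of 8 oligodendrocyte markers, which ran from 8467 to 17705 CPM, and -0.38, -0.44 and -0.35 with the sums for neurons, astrocytes and microglia. Their part in the differences described here was not tested. Other ribosomal proteins whose symbols escape the rule, such as Rps3a1, Fau and Rack1, followed with an r of 0.98, and the 78 mitochondrial ribosomal proteins with 0.91. Elongation factors and other known TOP mRNAs followed with 0.83. Ribosome biogenesis factors did not (-0.03). The list for control of TOP translation, which holds genes such as Mtor, Larp1, Tsc1 and Ddit4, ran the other way (-0.58). How far transcript length shaped these values was not tested.

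Averaged over both genotypes, food restriction came with slightly higher values of most family members in females, of which none passed the test. The summed level had a lowest, median and highest value of 20033, 24944 and 27426 CPM in unrestricted females and of 18694, 27356 and 30794 CPM in restricted females (n = 8 each). The ranges overlap over most of their length. By genotype (n = 4 each), unrestricted controls were at 20994, 27426, 25924 and 26729 CPM. Restricted controls were at 18694, 24187, 30794 and 24958 CPM. Knockouts were at 20033 to 27364.5 CPM unrestricted and at 27152 to 29032 CPM restricted. The higher summed level was thus seen in knockouts, while controls were not higher as a group. Of the 79 genes 76 had a positive log2 difference, with a median of 0.11 (all genes tested, -0.0052), and none was called by edgeR at an adjusted p under 0.05, against 6.27% of all genes tested. At an unadjusted p under 0.05 stood 4 of the 79, all positive, and 19% of all genes. DESeq2 called none and limma with sample quality weights 1, against 9.6% of all genes by limma. After removal of the length trend the median was 0.09 and 1 gene was called (6.92% of all genes). This was Rpl3, at 700 to 828 CPM in unrestricted and 706 to 965 CPM in restricted females (log2 difference 0.16, adjusted p = 0.0325); as counted its difference was 0.18, with a standard error of 0.07 and an adjusted p of 0.137. Without female control restricted replicate 1, 3 genes were called, all higher, among them Rps29 and Rps28, where 6.84% of all genes were.

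In males restriction moved the family by less than the spread between libraries. The summed level was at 17019, 23361 and 29534 CPM (lowest, median, highest) in unrestricted and 17368, 24639 and 30698 CPM in restricted males (n = 8 each). By genotype, the ranges were 17019 to 25852 CPM in unrestricted and 17368 to 30698 CPM in restricted controls (n = 4 each). In knockouts they were 20810 to 29534 CPM and 19775.5 to 26670 CPM. The highest value was thus higher with restriction in controls and lower in knockouts. Of the 79 genes 46 were positive and 33 negative over both genotypes, with a median log2 difference of 0.02. The pseudogene Rpl6l was the only one called, where 8.28% of all genes tested were. It ran from 0.389 to 1.32 CPM in unrestricted and from 0.713 to 2.48 CPM in restricted males, with a log2 difference of 0.78 (standard error 0.23, edgeR, adjusted p = 0.0276). The call was lost without male control restricted replicate 1 or 3, male knockout restricted replicate 1, male control unrestricted replicate 3 or male knockout unrestricted replicate 4. After removal of the length trend Rpl6l was again the only call, against 8.93% of all genes.

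Averaged over both genotypes, most family members were lower after refeeding than in restricted mice, in both sexes. In females the summed level was 20103, 23883 and 26719 CPM (lowest, median, highest) in refed mice, beside the restricted values above. By genotype, controls were at 23540 to 24738 CPM refed and at 18694 to 30794 CPM restricted. Knockouts were at 20103 to 26719 CPM refed and at 27152 to 29032 CPM restricted, so the ranges separated in knockouts only. The log2 difference was negative for 77 of the 79 genes, with a median of -0.13. Rps28 was the only gene called, against 6.1% of all genes tested. This small subunit gene (chromosome 17, 34034199 to 34043536, GRCm39) encodes a protein at the mRNA exit channel. It was at 84.8 to 102 CPM in refed and 68.9 to 140 CPM in restricted females, with medians of 88.8 and 118 CPM. Its log2 difference was -0.32 (standard error 0.10), and its adjusted p of 0.0498 lay just under the threshold. Leaving out single libraries ended this call in 36 of 48 fits. On removal of the length trend Rps28 (-0.23) and Rplp0 (-0.16) were called, against 6.54% of all genes, and the median was -0.09. Without female control restricted replicate 1, which is the lowest of the restricted females in Rps28, 4 genes were called, all lower, among them Rps28, Rps29 and Rps27, where 6.82% of all genes were.

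In males the refed libraries held 16451, 20470 and 26769 CPM (lowest, median, highest) of the summed level. By genotype, refed controls were at 16451 to 26769 CPM and refed knockouts at 17119.5 to 21769 CPM. Restricted controls were at 17368 to 30698 CPM and restricted knockouts at 19775.5 to 26670 CPM, so the ranges overlapped in both genotypes. The log2 difference to restricted males was negative for 78 of the 79 genes, with a median of -0.19, and at an unadjusted p under 0.05 stood 30 of the 79, all lower, against 22.6% of all genes in either direction. None was called, against 8.33% of all genes tested. The smallest p-values belonged to Rps7 (log2 difference -0.34, standard error 0.12, edgeR, adjusted p = 0.0661) and Rpl9 (-0.39, standard error 0.14, adjusted p = 0.0838). Rps7 ran from 189 to 338 CPM in refed and from 240 to 452 CPM in restricted males, with medians of 281 and 370 CPM. DESeq2 called 1 (8.68% of all genes) and limma with sample quality weights 4 (12.9%), all lower. Once the length trend was removed, Rps7 and Rps14 were called, both lower (-0.27 and -0.29), against 9.61% of all genes.

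Calls in this comparison came with the removal of certain single libraries. Of the 48 fits that left out 1 library, 44 called none. Without male control restricted replicate 2 there were 6 calls (7.59% of the 79, against 8.58% of all genes), without male knockout restricted replicate 4 there were 3 (8.56% of all genes) and without male control restricted replicate 1 there was 1 (7.93%), all lower. Male control refed replicate 2 had 26769 CPM, while the other 7 refed males lay between 16451 and 21769 CPM, and its length slope of -0.085 was the lowest of all 48 libraries. Without it 33 of the 79 genes (41.8%) were called, all lower in refed males, with log2 differences from -0.54 to -0.19, where 17.5% of all genes tested were called. Among them were Rpl29, Rps7, Rps4x, Rps14, Rps6, Rplp0 and Rpl10. Also without it and with the length trend removed, 32 genes (40.5%) were called, all lower, against 17.9% of all genes. With library numbers up to 28 and from 29 as a block in place of the length trend, and without this library, none was called, against 8.27% of all genes, and the median difference was -0.13.

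Refed mice were also compared with unrestricted mice. In males 78 of the 79 log2 differences were negative with a median of -0.19, and none was called, against 0.167% of all genes tested. At an unadjusted p under 0.05 stood 14 of the 79, all lower, against 13.4% of all genes in either direction. DESeq2 called none and limma with sample quality weights 1, against 7.47% of all genes by limma. When the length trend was removed the median was -0.11, again with no gene called and 0.179% of all genes. Without male control refed replicate 2 there were 7 genes called, all lower and led by Rpl29, against 10.4% of all genes. There were 2 with the length trend also removed, against 7.54%, and none with the library number block in its place, against 0.126%. In females 61 of the 79 were negative with a median of -0.04. EdgeR, DESeq2 and limma called none, none had an unadjusted p under 0.05, and the share over all genes was 0.0403% as counted and 0.0692% with the length trend removed.

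Other measures moved with refeeding as well. Against restricted mice, all 5 red cell markers were called higher in refed females and in refed males, as were 2 and 6 of the 8 oligodendrocyte markers and 2 and 6 of the 7 microglia markers, where 6.1% and 8.33% of all genes were called. The summed red cell markers had medians of 1261 CPM in refed and 483 CPM in restricted females, and of 1044 and 445 CPM in males. The summed oligodendrocyte markers had lower medians in refed mice, 13215 against 14062 CPM in females and 11436 against 12200 CPM in males, and 2 of the 8 had negative differences in each sex. Their part in the lower ribosomal protein values was not tested.

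Library number and refeeding cannot be fully told apart. Among libraries numbered up to 28 the summed level of refed males (median 20470 CPM, n = 8) lay beside that of restricted males (17368, 19198 and 25084 CPM, n = 3) and of unrestricted males (20810 and 22955 CPM, n = 2). Restricted males numbered from 29 were at a median of 26059 CPM (n = 5) and unrestricted males at 24810 CPM (n = 6). In females numbered up to 28 the medians were 23883 CPM refed (n = 8), 28002 CPM restricted (n = 4) and 20994 CPM unrestricted (n = 3). With library number as a block, the median log2 difference of refed against restricted mice was -0.02 in females and -0.05 in males. Of refed against unrestricted mice it was 0.13 in females, a change of sign, and -0.01 in males. No refed library is numbered from 29, so the comparison within that block could not be made.

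**Figure D5:**
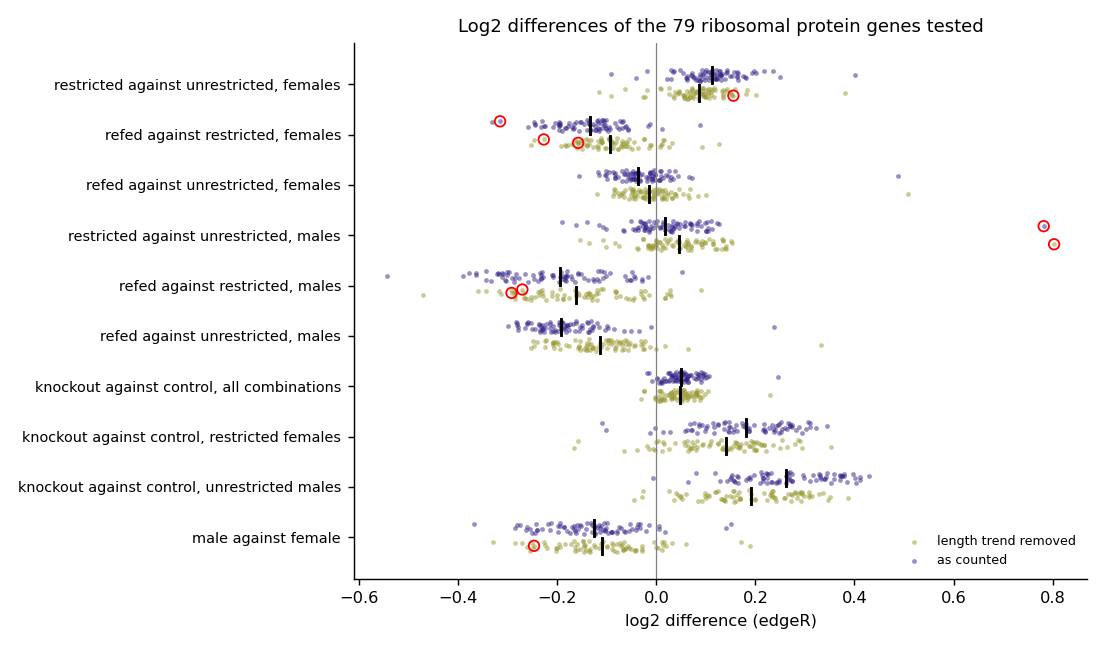
Log2 differences of the 79 tested genes in 10 comparisons, as counted (upper row of each pair) and with the length trend removed (lower row); black bars are medians and red rings mark genes with an adjusted p under 0.05. Refed mice lie to the left of 0 against restricted mice in both sexes, and the isolated rings near 0.8 are the pseudogene Rpl6l.

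Between genotypes no gene of the family was called in any comparison. Over all combinations 76 of the 79 log2 differences were positive, with a median of 0.05; edgeR called none and 1 gene in all (0.00576%), and none of the 79 had an unadjusted p under 0.05. With the length trend removed the share over all genes was again 0.00576%, and DESeq2 called no family member either. By sex and feeding state, none was called in unrestricted females (0.0115% of all genes), restricted females (0.386%), refed females (0.00576%), unrestricted males (0.00576%), restricted males (0.00576%) or refed males (0.225%). The medians were highest in unrestricted males (0.26) and restricted females (0.18), and lowest in unrestricted females (-0.09). In unrestricted males 10 of the 79 had an unadjusted p under 0.05, against 3.51% of all genes. In restricted females 7 of the 79 did, against 12.5% of all genes. In restricted females Rpl3 had the smallest p-value: the 4 knockouts lay between 937 and 965 CPM, above all 4 controls at 706 to 884 CPM (log2 difference 0.24, standard error 0.10, adjusted p = 0.298). In the same comparison 2 of the 8 oligodendrocyte markers were called, both higher in knockouts, and the median length slope was -0.043 in knockouts and -0.015 in controls.

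Males had lower values than females in most of the family, by a margin that passed the test only under some analyses. The summed level ran from 16451 to 30698 CPM in males with a median of 21741 CPM, and from 18694 to 30794 CPM in females with a median of 24463 CPM (n = 24 each). The log2 difference was negative for 74 of 79 genes, with a median of -0.13, against 0.0073 over all genes. At an unadjusted p under 0.05 stood 44 of the 79 as lower and 1, Rps4l, as higher, while 18% of all genes did so in either direction. No gene was called by edgeR or DESeq2, against 0.357% of all genes tested by edgeR. Rpl5 had the smallest adjusted p (0.0938): it ran from 262 to 586 CPM in males and from 372 to 579 CPM in females, with medians of 420 and 526 CPM and a log2 difference of -0.26 (standard error 0.07). For Rps27l the medians were 22 and 27.8 CPM and the log2 difference -0.37 (standard error 0.11, adjusted p = 0.106). With that trend removed 1 gene, Rpl9, was called as lower, against 0.645% of all genes.

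The number of genes called between the sexes differed widely between analyses. Limma with sample quality weights called 39 of the 79 (49.4%), all lower in males, against 11% of all genes tested. EdgeR with library number as a block called 10 (12.7%), all lower, against 2.75%. In 46 of the 48 fits that left out 1 library, edgeR called none. Without male control refed replicate 2 it called 19 (24.1%), all lower, against 6.19%, and without male control restricted replicate 3 it called 2, against 0.758%. Without male control refed replicate 2 and with the length trend removed it called 28, of which 27 were lower, against 7.3%. Without male control refed replicate 2 and with the library number block it called 51 (64.6%), all lower, against 14.3%. Within library numbers the medians of the summed level were 23794 CPM in females (n = 15) and 20810 CPM in males (n = 13) up to 28, and 26729 CPM (n = 9) and 25852 CPM (n = 11) from 29.

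With all libraries, edgeR called none of the X-linked members between the sexes, while Rpl10 was among the genes that limma with sample quality weights called lower in males (log2 difference -0.16, adjusted p = 0.0409). It was also among the 51 that edgeR called without male control refed replicate 2 and with the library number block. Rps4x was at medians of 310 CPM in females and 289 CPM in males (log2 difference -0.05, standard error 0.06), Rpl36a at 74.4 and 70.3 CPM (-0.04, standard error 0.05), Rpl39 at 111 and 102 CPM (-0.14, standard error 0.07) and Rpl10 at 370 and 338 CPM (-0.12, standard error 0.07). Their adjusted p-values from edgeR were 0.676, 0.712, 0.3 and 0.327. The list of TOP mRNAs held 1 call between the sexes, the X-linked initiation factor gene Eif2s3x, which was lower in males by 0.56 on the log2 scale. No family member was called for the interactions of genotype with sex, genotype with feeding state, sex with feeding state or all 3 together, where 0% of all genes tested were called in each. At an unadjusted p under 0.05 stood 0, 0, 1 and 5 of the 79, against 5.11%, 4.56%, 6.35% and 8.22% of all genes. DESeq2 called none of the 79.

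Some genes that regulate TOP mRNAs or build ribosomes were called between feeding states. Shares called over all genes in either direction were 6.27% and 8.28% with restriction in females and males, and 6.1% and 8.33% on refeeding. Of the 17352 genes tested, 524 in females and 771 in males were called higher with restriction. On refeeding 449 and 606 were called lower. The list counts are read against these values, and no list was tested as a set. Of the 18 genes listed for control of TOP translation, 3 were called higher in restricted females and 5 in restricted males, and 3 and 2 were called lower on refeeding. Ddit4, which restrains mTORC1 under stress, rose by a log2 difference of 0.85 in females (standard error 0.11, edgeR, adjusted p = 1.47e-06) and 0.57 in males (adjusted p = 0.000509), and fell by 0.98 and 0.84 on refeeding. Sesn1, a sestrin that relays amino acid shortage, rose by 0.27 in both sexes with standard errors of 0.06. Of 37 ribosome biogenesis factors, 2 in females and 4 in males were called higher with restriction. Tma16, a factor of large subunit assembly, rose by 0.79 and 0.85 (standard errors 0.07) and fell by 0.70 and 0.84 on refeeding, and the nucleolar gene Gnl3 rose by 0.20 and 0.25. Of the 28 initiation factors 1 was called higher in each sex, Eif6 in females and Eif2b3 in males. Of the 7 ribosomal proteins outside the rule none was called in any feeding, genotype or sex comparison. Their median log2 difference of refed against restricted males was -0.17.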

How the data were processed

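The deposited table holds expected counts per gene symbol, which need not be whole, for 48 mRNA libraries; per the submitters' processing notes the authors used fastp, STAR and Salmon with mm39, and settings are not given in the sources used here. Members and lists were chosen with earlier results of these data known. Counts were rounded and genes filtered with filterByExpr (minimum count 10, minimum total 15), normalised by TMM, and tested with edgeR 4.0.16 (quasi-likelihood, R 4.3.3) in 1 fit of 12 groups; adjusted p-values are Benjamini-Hochberg over 17352 genes, with a call at 0.05. CPM are counts scaled to a common total by the TMM-adjusted library size. Log2 CPM for deviations used a prior count of 2. Lengths came from the canonical transcripts of GENCODE M39 (GRCm39), matched by symbol for 98.6% of genes tested. The labels do not say how animals were paired or batched. Replicates are separate mice numbered in accession order. Named genes were those called, with a listed role or paralog, X-linked, at either end of the level per kilobase, or least correlated, plus, where no gene was called, those of smallest p. Some further genes, such as Rpl29, Rps3 and Rps24, were named after their values were seen. Alternatives used limma 3.58.1 and DESeq2 1.42.0, other filters, offsets, covariates and each library left out. The edgeR steps were tested on simulated data. Values of 2 single genes are not reported here.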

Additional observations from a re-analysis of the deposited data

Results flagged for a closer look

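In groups of 4, a value was taken as standing apart when its gap to the nearest other value took up more of the group's range than Dixon's 95% limit allows. Chance alone gives about 1 in 20 where values vary continuously, and 12 of 384 groups and measures (3.12%) met it. The 384 include the groups of Rpl10l, which were at 0 throughout and could not meet it. Rpl3l was at 25.9 CPM in male control refed replicate 1, where the other 3 refed control males were at 0.284 to 0.385 CPM, and at 1.72 CPM in female control restricted replicate 2, where the other 3 were at 0.236 to 0.340 CPM; these are the libraries with the highest skeletal muscle marker sums. Rpl39l was at 0.0873 CPM in male control refed replicate 3 and at 0 in the other 3, a case in which any nonzero value meets the limit. Rps4x was at 263 CPM in male knockout restricted replicate 4, against 348 to 356 CPM in the other 3, and the ratio of the large to the small subunit sum was 1.55 in the same library, against 1.47 to 1.48. That ratio was 1.53 in female control refed replicate 3, against 1.49 to 1.498. Rps4l was at 21.2 CPM and Rpl36a at 77.9 CPM in female knockout restricted replicate 1, against 17.3 to 17.5 CPM and 84.6 to 85.4 CPM. Rpl10 was at 338 CPM in female control unrestricted replicate 1 (391 to 402 CPM in the other 3), Rplp2 at 184 CPM in male knockout refed replicate 2 (213 to 218 CPM), Rps27 at 139 CPM in female knockout unrestricted replicate 2 (160 to 163 CPM) and Rpl4 at 418 CPM in male knockout restricted replicate 2 (438 to 439 CPM).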

How the results depend on the processing

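No paired analysis was possible because the labels carry no replicate numbers. The counts of the 79 genes called were as follows, where they moved. Restricted against unrestricted females gave 0, and 1 with limma and sample quality weights, with only the groups compared, and with offsets for transcript length or coding length (leaving out 1 library, 0 to 3). In males it gave 1, and 0 without a filter, with limma or with only the groups compared (0 to 1). Refed against restricted females gave 1; it gave 0 with RLE size factors, age in the model, the library number block, GC offsets or -ps counts added, 2 without a filter or with transcript length offsets, 3 with coding length offsets, and 4 with limma or only the groups compared (0 to 4). In males it gave 0; it gave 1 with DESeq2, 2 with transcript length offsets, 4 at an adjusted p under 0.1, with limma or with coding length offsets, and 5 without a filter (0 to 33), and 32 without male control refed replicate 2 and with transcript length offsets. Refed against unrestricted males gave 0, 1 with limma, and 2 with that library left out and length offsets (0 to 7). Male against female gave 0; it gave 1 at an adjusted p under 0.1 or with either length offset, 8 without a filter, 10 with the library number block and 39 with limma (0 to 19), and, without male control refed replicate 2, 28 with transcript length offsets and 51 with the block. Coding length offsets and both combinations that leave out this library were chosen after seeing the data. The causes were not tested. Refed against unrestricted females, knockout against control over all combinations and in restricted females, and the interactions gave 0 in every alternative run. The median log2 difference changed sign in 8 fits for restricted against unrestricted males and in 3 for refed against unrestricted females, within the spread between libraries. The r of the summed level with the length slope stayed between -0.844 and -0.820 when each library was left out.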
